A study of Homo sapiens with 3 samples.

Results

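The integrated stress response genes described here are 10 genes controlled by, or acting with, the transcription factor ATF4: ATF4, ATF3, ATF5, DDIT3, TRIB3, SESN2, CHAC1, ASNS, GDF15 and STC2. They were taken by gene name from the deposited expression tables, where all 10 were found once each among 61533 genes. All 10 had at least 50 fragments in at least 1 library. Polyadenylated RNA was sequenced from Hep3B, an established human hepatoma line of wild-type genotype by its label, under 1% oxygen with oxamate sodium, which inhibits lactate dehydrogenase, under 1% oxygen alone (hypoxia), and under 20% oxygen (normoxia). The series design states 48 hours after naming oxamate, without saying whether this covers all 3 cultures, and no oxamate dose is stated. Each condition has 1 library, from 1 cell line, so the differences have no replicate check, and p-values over samples cannot be had.

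The integrated stress response begins when kinases that sense amino acid shortage, misfolded protein in the endoplasmic reticulum, haem or mitochondrial defects, or double-stranded RNA phosphorylate the translation factor eIF2alpha. General protein synthesis then slows, while ATF4 is translated more, because short upstream reading frames hold back its translation when the factor is active. ATF4 pairs with other basic leucine zipper proteins and raises genes for amino acid supply, for feedback on the stress and, when stress lasts, for cell death. In liver the pathway is known for its part in the response to amino acid shortage and to mitochondrial stress, with circulating hormones such as GDF15 and FGF21 among its products. ATF4 is controlled largely at translation, which RNA levels do not measure.

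The libraries held 24826365 fragments assigned to genes with oxamate, 26309340 in hypoxia and 27412147 in normoxia. Levels are given in CPM, the fragments of a gene divided by the normalised library total on the usual CPM scale. Ratios are of these levels, each followed by its 95% exact binomial interval, which reflects counting error alone. The 2-fold rule used below asks for a ratio of 2-fold or more in either direction and for 50 or more fragments in the larger of the paired values. The 3 comparisons share libraries, so they are not independent of one another. The hepatoma identity of the cells is seen in all 10 hepatocyte markers having fragments in every library, with ALB highest. In hypoxia over normoxia 5 of these 10 were past the 2-fold rule as lower, against 8.06% of all genes tested. TF was past it as higher, at 3.38-fold (3.35 to 3.42), which makes 1 of 10, against 10.8% of all genes. The summed level of the 10 markers was 11932 CPM with oxamate, 20707 CPM in hypoxia and 32400 CPM in normoxia. Of this, ALB had 6810, 8888 and 18295 CPM. Among markers of other cell types, the 6 blood cell genes summed to 61.0, 32.6 and 43.1 CPM in the same order, most of it LYZ, with CD3E and CD163 at 0 throughout. The 4 endothelial genes summed to 20.1, 8.35 and 1.35 CPM, nearly all of it PECAM1, with KDR at 0 in every library. The 6 fibroblast genes summed to 7.12, 20.8 and 15.2 CPM, with ACTA2 and DCN at 0 throughout. The 4 markers of cholangiocytes and other epithelia summed to 991, 833 and 1265 CPM. In bulk RNA, fewer cells of a type and less RNA per cell cannot be told apart, and the part of these levels in the results below was not tested.

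All 10 genes had higher values with oxamate than in hypoxia alone, with a median log2 ratio of 0.81, whereas the median over the 13739 genes tested was -0.01. Past the 2-fold rule were 3 of the 10, TRIB3, CHAC1 and STC2, where 5.92% of all genes tested were higher, and 0 were lower, where 5.07% of all genes were. All 10 intervals lay above 1, a weaker criterion that 34.8% of all genes met, and 0 lay below it, against 36.2% of all genes. At 1.5-fold, 8 of the 10 were higher and 0 lower, against 13.7% and 13.8% of all genes. The exceptions at 1.5-fold were ATF5 and SESN2.

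In hypoxia against normoxia the set divided. GDF15 was past the 2-fold rule as higher, which makes 1 of 10, where 10.8% of 13554 genes tested were higher. ATF5, TRIB3, SESN2 and CHAC1 were past it as lower, which makes 4 of 10, where 8.06% of all genes were lower. The median log2 ratio of the 10 genes was -0.65, and that of all genes tested was -0.11. Of the 10 intervals, 7 lay below 1 and 3 above it, those of ATF3, GDF15 and STC2, while 46.9% of all genes had an interval below 1 and 33.3% above it. At 1.5-fold, 2 were higher and 6 lower, against 18.7% and 21.9% of all genes.

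With oxamate against normoxia, 3 of 10 were past the rule as higher (ATF3, GDF15 and STC2), where 15.4% of 13597 genes were, and 1 as lower (ATF5), where 15.3% were. The median log2 ratio was 0.12, and over all genes it was -0.11. Of the intervals, 5 lay above 1 and 3 below it, against 37.3% and 47.1% of all genes. At 1.5-fold, 3 were higher and 3 lower, against 24.3% and 28.7% of all genes. ATF4, DDIT3, TRIB3 and ASNS lay within 1.13-fold of their normoxic level.

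**Figure D1:**
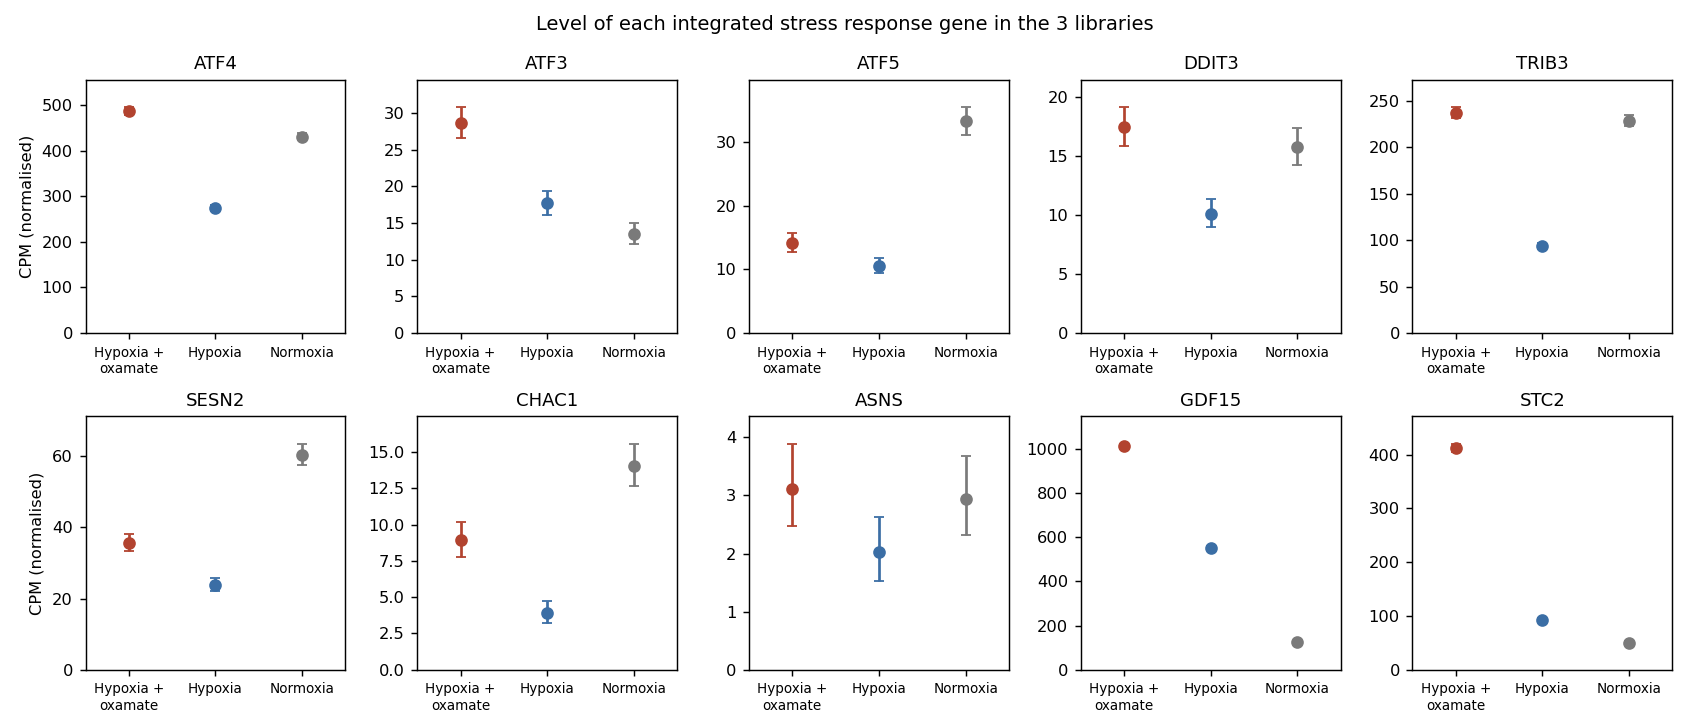
Level of each of the 10 genes (CPM, linear axis from 0) with oxamate, in hypoxia and in normoxia. Points are the single library of each condition and bars are 95% Poisson intervals, which cover counting error only. ATF3, GDF15 and STC2 are lowest in normoxia, whereas the other 7 are lowest in hypoxia.

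ATF4 itself, the transcription factor at the centre of the response, had 12204 fragments with oxamate, 7589 in hypoxia and 11143 in normoxia, or 488, 274 and 431 CPM. Its mRNA was thus highest with oxamate and lowest in hypoxia alone. The level was 1.78-fold higher with oxamate than in hypoxia (1.73 to 1.83) and 1.57-fold lower in hypoxia than in normoxia (1.53 to 1.62), both short of the 2-fold rule. With oxamate it was 1.13-fold its normoxic level (1.10 to 1.16). ATF4 occupies 39519695 to 39522683 on the plus strand of chromosome 22 (hg38). No other gene in GENCODE 29 shares its exon bases.

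DDIT3 encodes CHOP, a leucine zipper protein induced by ATF4 and tied to cell death under lasting stress. It had 437 fragments with oxamate, 280 in hypoxia and 408 in normoxia, or 17.5, 10.1 and 15.8 CPM. These values run in the same order as those of ATF4, with the hypoxia library lowest. The ratio was 1.73-fold higher for oxamate over hypoxia (1.48 to 2.01), and hypoxia was 1.56-fold lower than normoxia (1.34 to 1.82). Oxamate against normoxia gave 1.11-fold, with an interval of 0.966 to 1.27 that holds 1. Of the DDIT3 exon bases, 39.6% overlap exons of other genes, MARS1 and MBD6 among them, and the strand setting of the counting is not given in the sources used here, so its level is uncertain.

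ATF5, a close relative of ATF4 that in mammalian cells has been tied to the mitochondrial unfolded protein response, stood apart from it. It had 355 fragments with oxamate, 293 in hypoxia and 861 in normoxia, or 14.2, 10.6 and 33.3 CPM. Both hypoxic libraries were thus well below the normoxic one. It was 3.14-fold lower in hypoxia than in normoxia (2.75 to 3.602) and 2.35-fold lower with oxamate than in normoxia (2.07 to 2.66). Between the hypoxic libraries the difference was small, at 1.34-fold higher with oxamate (1.15 to 1.57). Exons of other genes, mainly on the opposite strand at NUP62 and IL4I1, cover 23.7% of its exon bases. NUP62 had 114, 127 and 178 CPM with oxamate, in hypoxia and in normoxia.

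ATF3, a stress-induced leucine zipper protein known mainly as a repressor, ran the other way in hypoxia. Its 717, 489 and 350 fragments with oxamate, in hypoxia and in normoxia correspond to 28.7, 17.7 and 13.5 CPM. The level was 1.62-fold higher with oxamate than in hypoxia (1.44 to 1.82) and 1.31-fold higher in hypoxia than in normoxia (1.14 to 1.502), and neither ratio reached 2. Only the widest contrast did, with oxamate 2.12-fold above normoxia (1.86 to 2.41), an interval that extends below 2.

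TRIB3, a pseudokinase that binds AKT and ATF4 and restrains the response, was the member with oxamate nearest to its normoxic level as analysed. With the trend over gene length removed DDIT3 was nearer, at a log2 ratio of -0.02 against 0.17. With a pseudocount of 1 FPKM ASNS was nearer, at 0.02 against 0.03. TRIB3 had 5933 fragments with oxamate, 2591 in hypoxia and 5906 in normoxia, or 237, 93.6 and 228 CPM. The oxamate and normoxia libraries were near each other, and hypoxia alone was far below them. Oxamate over hypoxia was 2.53-fold higher (2.42 to 2.65), hypoxia was 2.44-fold lower than normoxia (2.33 to 2.55), and oxamate over normoxia was 1.04-fold (1.00 to 1.08). The gene lies on the plus strand of chromosome 20 from 362835 to 397559 (hg38) and shares no exon bases with another gene.

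SESN2 encodes sestrin 2, a leucine sensor that holds back mTORC1 through GATOR2 and is induced by several stresses. It had 892, 660 and 1564 fragments with oxamate, in hypoxia and in normoxia, or 35.7, 23.9 and 60.5 CPM. Both hypoxic libraries were again below normoxia. The ratio was 2.54-fold lower for hypoxia against normoxia (2.31 to 2.78). With oxamate it was 1.495-fold above hypoxia (1.35 to 1.66), just under the 1.5-fold mark, and 1.70-fold below normoxia (1.56 to 1.84).

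**Figure D2:**
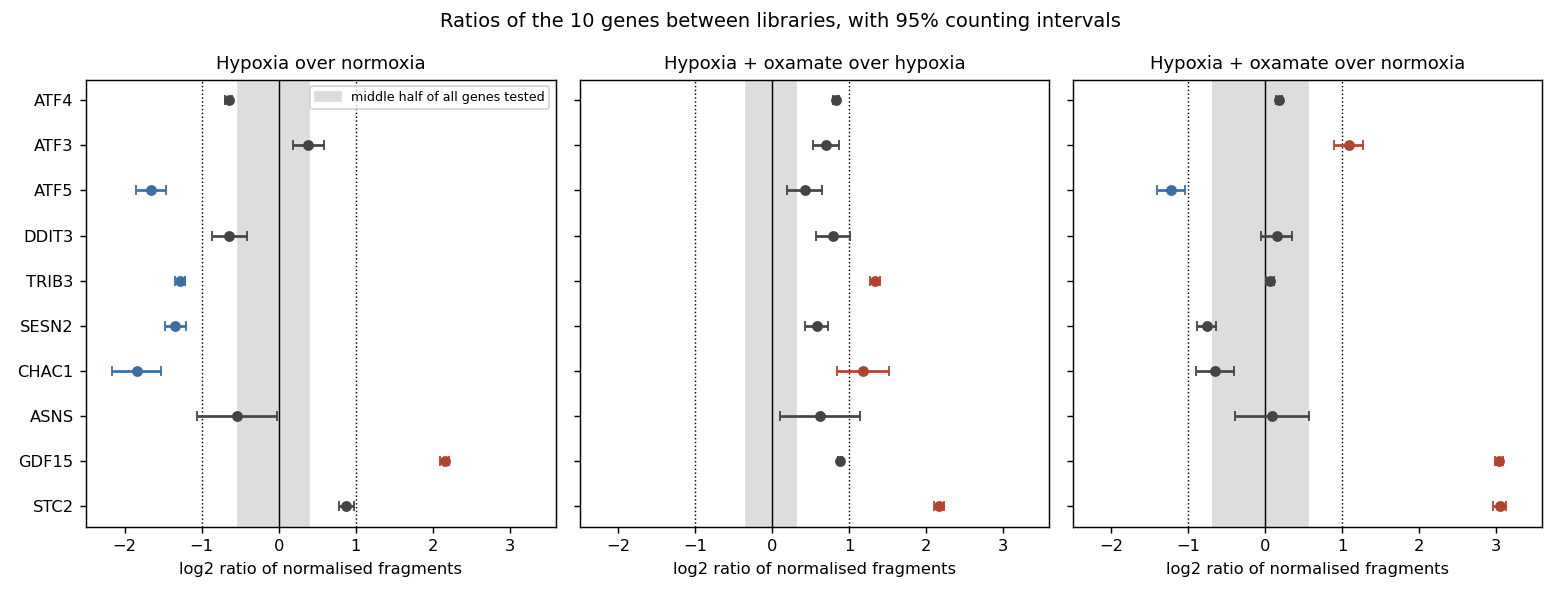
Log2 ratio of normalised fragments of the 10 genes in the 3 comparisons, with 95% counting intervals. Grey bands span the middle quartiles of all genes tested, dotted lines mark 2-fold, and coloured points passed the 2-fold rule (red higher, blue lower). With oxamate over hypoxia every point lies to the right of 0, from 0.42 for ATF5 to 2.17 for STC2.

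CHAC1, the gamma-glutamylcyclotransferase that breaks down glutathione and is a sensitive target of ATF4 and CHOP, had few fragments. It had 223 with oxamate, 109 in hypoxia and 364 in normoxia, or 8.92, 3.94 and 14.1 CPM. Hypoxia was the lowest library and normoxia the highest. Its ratio of hypoxia over normoxia was the lowest among the 10 genes, 3.57-fold below normoxia (2.88 to 4.47), and 98.6% of all genes tested had a higher ratio. With oxamate it was 2.26-fold above hypoxia (1.79 to 2.87), an interval that extends below 2, and 1.58-fold below normoxia (1.33 to 1.87).

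ASNS, asparagine synthetase, is a textbook target of ATF4 in amino acid shortage, but its value here is uncertain. It was listed at 78 fragments with oxamate, 56 in hypoxia and 76 in normoxia, or 3.12, 2.02 and 2.94 CPM, the lowest of the 10 genes in every library. The ratio was 1.54-fold higher with oxamate than in hypoxia (1.08 to 2.21) and 1.45-fold lower in hypoxia than in normoxia (1.01 to 2.09). ASNS occupies 97851677 to 97872542 on the minus strand of chromosome 7 (hg38). Of its exon bases, 44.6% are also exons of ENSG00000284707 on the same strand, a longer gene that ends inside it at 97851688 and starts at 97972985.

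ENSG00000284707 had 101, 162 and 50 fragments with oxamate, in hypoxia and in normoxia, in an order unlike that of ASNS. Adding the fragments of both, an alternative chosen after the data were seen, gave 179, 218 and 126. On this sum, oxamate over hypoxia was 0.908 (0.741 to 1.11), an interval that holds 1, and hypoxia over normoxia was 1.62 (1.29 to 2.03). Both ratios lay on the other side of 1 from those of ASNS alone. Most fragments of the sum in hypoxia, 162 of 218, were those of ENSG00000284707. How fragments in the shared exons were assigned is not given in the sources used here, and fragments that could belong to either gene may be missing from both.

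ATF4 and its partners are known to act at C/EBP-ATF composite elements, which join a TGATG half-site to a partner's half-site. The letters TGATGNAA were searched on both strands in RefSeq windows of 250 bases before to 50 bases after each annotated start (GRCh38.p14), where N is any base. All 10 genes matched, with 18 windows, and 3 windows held a match, that is 16.7%, against 3.62% of 35116 windows of all genes. Counted by gene, 3 of 10 had a match, against 4.46% of 27305 genes. These 3 sites are shown because their genes include the uncertain ASNS and the most reduced member CHAC1. Each line has 30 bases in the direction of the gene, and capitals mark the match.
ASNS: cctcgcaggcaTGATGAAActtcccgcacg
CHAC1: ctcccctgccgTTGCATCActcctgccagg
ATF3: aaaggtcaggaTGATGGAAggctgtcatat
The ASNS stretch is chr7:97872458-97872487 on the minus strand, and its match begins 68 bases before the annotated start. The CHAC1 stretch is chr15:40953251-40953280 on the plus strand, with the match in the opposite orientation at 209 bases. The ATF3 stretch is chr1:212565205-212565234 on the plus strand, with the match at 191 bases. The ASNS and CHAC1 stretches overlap exons of longer transcripts of the same genes in GENCODE 29, and the ATF3 stretch lies before the gene as the deposited tables give it. The matches are letters in these windows and do not show binding, and nothing about ATF4 follows for the 7 genes without one.

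The secreted hormones GDF15 and STC2 had the largest ratios of oxamate over normoxia among the 10 genes. GDF15, a stress hormone of the TGF-beta superfamily that acts on GFRAL in the hindbrain, had 25276 fragments with oxamate, 15187 in hypoxia and 3188 in normoxia, or 1011, 549 and 123 CPM. Each library stood clear of the next. It was 4.45-fold higher in hypoxia than in normoxia (4.29 to 4.63), where 2.75% of all genes had a higher ratio. With oxamate it was a further 1.84-fold above hypoxia (1.80 to 1.88), short of the 2-fold rule, and 8.20-fold above normoxia (7.90 to 8.51). GDF15 occupies 18374731 to 18389176 on the plus strand of chromosome 19 (hg38), and no other gene shares its exon bases.

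A separate count at the same locus came from MIR3189, a microRNA hairpin gene that lies inside an intron of GDF15, so that its fragments are not those counted for GDF15 exons. It had 259 fragments with oxamate, 143 in hypoxia and 42 in normoxia, or 10.4, 5.17 and 1.62 CPM. The order of the libraries was that of GDF15. Hypoxia was 3.18-fold above normoxia (2.24 to 4.603) and oxamate 2.004-fold above hypoxia (1.63 to 2.48). In a poly(A) library such fragments can come from unspliced RNA of the host gene as well as from the hairpin, and they are no measure of the mature microRNA. Another hairpin gene, MIR616, lies within the span of DDIT3 on the same strand. It had 16, 31 and 10 fragments with oxamate, in hypoxia and in normoxia, too few for the 2-fold rule. MIR616 was thus highest in hypoxia, where DDIT3 was lowest. Its ratio was 2.90 for hypoxia over normoxia (1.38 to 6.63) and 0.571 for oxamate over hypoxia (0.292 to 1.08).

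**Figure D3:**
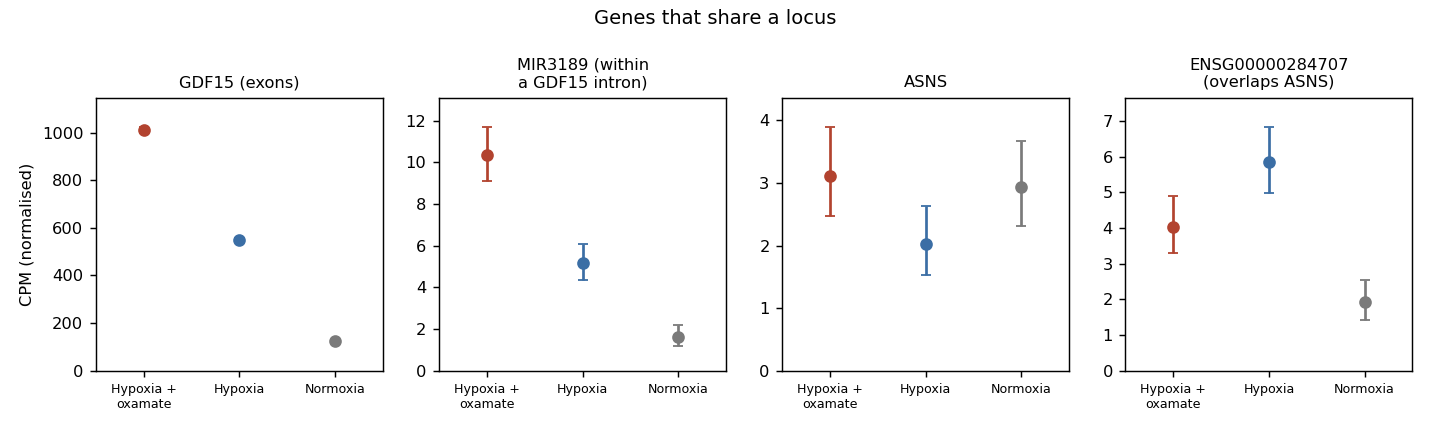
Levels (CPM, linear axes from 0, different scales) of GDF15 and of MIR3189 within its intron, and of ASNS and the overlapping gene ENSG00000284707, in the 3 libraries, with 95% Poisson intervals for counting error. GDF15 and MIR3189 fall in the same order, highest with oxamate, whereas ENSG00000284707 is highest in hypoxia, where ASNS is lowest.

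STC2, stanniocalcin 2, a secreted glycoprotein that inhibits the protease PAPP-A and has been described as a target both of ATF4 and of hypoxia-inducible factor (HIF), had 10317 fragments with oxamate, 2542 in hypoxia and 1292 in normoxia. These are 412, 91.9 and 49.9 CPM. The oxamate library was far above both others. Oxamate over hypoxia was 4.49-fold higher (4.30 to 4.69), a ratio exceeded by 1.03% of genes tested, or 141 of them. Hypoxia over normoxia was 1.84-fold (1.72 to 1.97), under the rule as analysed and over it when libraries were scaled by total fragments (log2 1.04). With oxamate STC2 was 8.26-fold above normoxia (7.79 to 8.76), close to the value of GDF15. The steps differed in size: GDF15 changed more between normoxia and hypoxia, and STC2 more between hypoxia and oxamate.

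The STC2 window held the HIF core letters ACGTG or GCGTG, searched on both strands, as did at least 1 window of 6 of the 10 genes in all, STC2 included, against 52.4% of all genes. STC2 is shown because its 3 matches fall close together. The stretch is chr5:173328626-173328655 on the minus strand (GRCh38.p14), with capitals for the matches, of which the first begins 235 bases before the annotated start. It lies before the gene as the authors gave its span, but overlaps an exon of STC2 in GENCODE 29.
STC2: catacaCACGCACGCaaacGCGTGgccgcc
The neighbouring CACGC matches share a base, and both are the core read on the opposite strand. TRIB3 had 6 matches in its first window, some of which also share bases, and all but the farthest began within 31 bases before the start.

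Per exon length, the order of the 10 genes shifted between libraries. With oxamate the highest deposited FPKM were 479 for GDF15, 185 for ATF4, 80.6 for STC2 and 71.3 for TRIB3. In hypoxia alone they were 262 for GDF15, 104 for ATF4, 28.3 for TRIB3 and 18.1 for STC2. In normoxia ATF4 led at 166, followed by TRIB3 at 69.8, GDF15 at 59.4 and SESN2 at 17.6, with STC2 in position 7 at 9.92. DDIT3 held position 5 in every library, at 13.2, 7.70 and 12.1 FPKM with oxamate, in hypoxia and in normoxia, and ASNS the last. Together the 10 genes took 0.227% of all fragments with oxamate, 0.113% in hypoxia and 0.0918% in normoxia, with GDF15 the member with the most fragments in both hypoxic libraries.

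**Figure D4:**
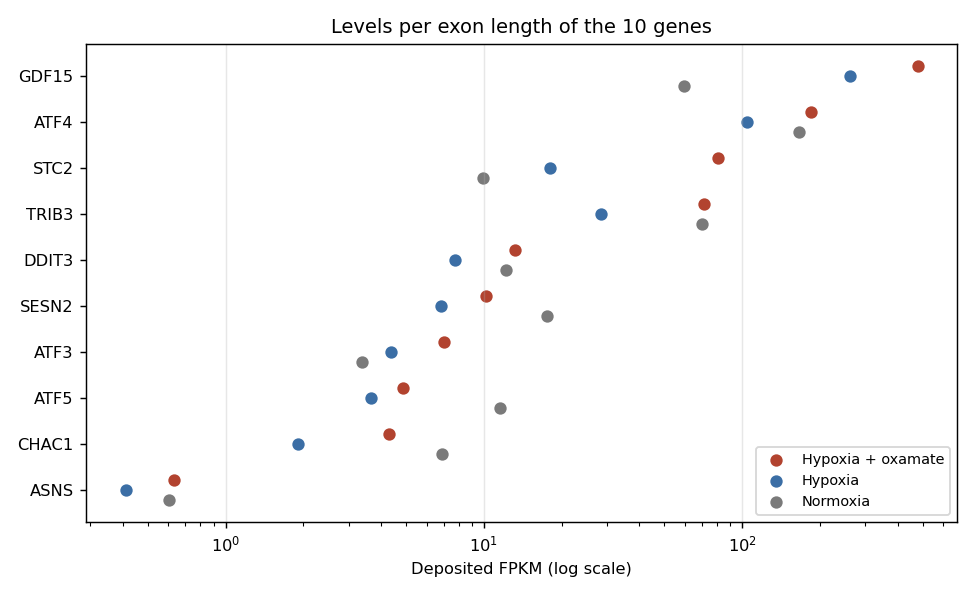
Deposited FPKM (log axis) of the 10 genes with oxamate, in hypoxia and in normoxia, ordered by the value with oxamate. Each point is 1 library without replicates. GDF15 spans 59.4 to 479 and STC2 9.92 to 80.6, while ATF4 stays between 104 and 185.

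The counts of the lists below are to be read against all genes tested, of which 11% were past the 2-fold rule in either direction with oxamate over hypoxia, 18.9% in hypoxia over normoxia and 30.7% with oxamate over normoxia. By direction, the higher and lower shares were 5.92% and 5.07%, 10.8% and 8.06%, and 15.4% and 15.3% in the same order. A list of 8 genes holds eIF2alpha kinases and their regulators, upstream of ATF4, among them an inhibitor, IMPACT. Of these genes, 0 were past the rule with oxamate over hypoxia and 0 in hypoxia over normoxia. The median log2 ratios were -0.21 and -0.14, and counts of 0 of 8 are near those shares of all genes. With oxamate over normoxia 2 of 8 were lower, IMPACT at 2.90-fold (2.55 to 3.304) and EIF2AK4 at 2.17-fold (1.93 to 2.45). EIF2AK3, which encodes the endoplasmic reticulum kinase PERK, had 63.4, 53.2 and 40.9 CPM with oxamate, in hypoxia and in normoxia. EIF2AK4, the amino acid sensor GCN2, had 16.6, 28.0 and 36.1 CPM, and its inhibitor IMPACT 12.5, 23.8 and 36.3 CPM. EIF2AK1, the haem-regulated kinase that also relays mitochondrial stress through DELE1, had 471 CPM with oxamate, 492 CPM in hypoxia and 514 CPM in normoxia. Kinase activity and phosphorylation of eIF2alpha were not measured.

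Among 10 genes for eIF2, its exchange factor eIF2B and the eIF2alpha phosphatase, the regulatory subunits of the phosphatase had the largest ratios of oxamate over hypoxia. PPP1R15B, the constitutive regulatory subunit, had 252, 125 and 99.8 CPM with oxamate, in hypoxia and in normoxia, 2.02-fold higher for oxamate over hypoxia (1.94 to 2.11), the only member past the rule there. PPP1R15A, which encodes the stress-induced subunit GADD34, had 95.1, 51.1 and 34.7 CPM, 1.86-fold higher (1.74 to 1.99). In hypoxia against normoxia the eIF2B subunit gene EIF2B3 was 2.87-fold lower (2.47 to 3.34), and the list had 0 higher, 1 lower and a median of -0.58.

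Of 11 measured genes for leucine zipper partners of ATF4, 1 was higher and 1 lower with oxamate over hypoxia, near the 5.92% and 5.07% of all genes. CEBPB was 2.20-fold higher (1.88 to 2.58), and CEBPA, a hepatocyte identity factor, was 5.43-fold lower (4.94 to 5.99). CEBPA had 19.8, 108 and 235 CPM with oxamate, in hypoxia and in normoxia. In hypoxia over normoxia 3 were higher and 2 lower. The higher genes were FOS at 5.80-fold (5.08 to 6.64), JUNB at 5.197-fold (4.92 to 5.49) and JUN at 2.19-fold (2.09 to 2.29). The lower genes were CEBPA at 2.18-fold (2.09 to 2.28) and CEBPB at 2.003-fold (1.71 to 2.36). CEBPG, a common partner of ATF4, had 105, 114 and 153 CPM.

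Other ATF4 targets for amino acid supply were mostly lower in hypoxia. Of 17 measured, 1 was higher and 10 lower in hypoxia over normoxia, with a median log2 ratio of -1.20. The amino acid transporter gene SLC7A5 was 4.91-fold lower (4.65 to 5.19), and PHGDH, the first enzyme of serine synthesis, was 4.63-fold lower (4.36 to 4.93). The serine synthesis gene PSAT1 was 4.28-fold lower (4.09 to 4.48), with 141, 83.7 and 358 CPM with oxamate, in hypoxia and in normoxia. The gene past the rule as higher was SLC38A2, the neutral amino acid transporter SNAT2, at 2.36-fold (2.31 to 2.40), and ALDH18A1, a proline synthesis enzyme, stood at 1.19-fold (1.15 to 1.23). For oxamate over hypoxia the list had 5 higher and 0 lower, and its median was 0.70. SLC7A11, the cystine carrier, had 100, 27.8 and 39.05 CPM and was 3.598-fold higher (3.32 to 3.91), and the glycine transporter gene SLC6A9 was 2.90-fold higher (2.28 to 3.71). SLC3A2, the heavy chain that pairs with both SLC7A11 and SLC7A5, was 2.07-fold higher (1.94 to 2.21), SLC7A5 2.03-fold (1.91 to 2.16) and the mitochondrial folate enzyme gene MTHFD2 2.02-fold (1.89 to 2.16). Against these, PSPH was 1.41-fold and CBS 1.56-fold lower with oxamate, neither past the rule. With oxamate over normoxia, 2 of 17 were higher and 6 lower, against 15.4% and 15.3% of all genes. The median there was -0.65, and over all genes it was -0.11.

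Of 13 ATF4 target genes for aminoacyl-tRNA synthetases and tRNA export, 6 were lower and 0 higher in hypoxia over normoxia, with a median of -0.97, but 0 were past the rule in either direction in oxamate over hypoxia, with a median of 0.15. The lowest ratios in hypoxia over normoxia were those of YARS1, 3.32-fold lower (3.13 to 3.52), and of the tRNA exportin gene XPOT, 2.34-fold lower (2.26 to 2.43). YARS1 had 56.9, 55.6 and 184 CPM with oxamate, in hypoxia and in normoxia. CARS1 had the largest ratio of oxamate over hypoxia in the list, at 1.67-fold (1.56 to 1.80). Whether the synthetase and amino acid supply lists differ in their change with oxamate was not tested.

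ATF4 and CHOP targets of stress signalling and cell death had 4 of 12 measured members higher and 2 lower in hypoxia over normoxia. The median log2 ratio was 0.61. This list shares CEBPB with the partners of ATF4 and PPP1R15A with the phosphatase subunits, so these lists are not separate. DDIT4, an inhibitor of mTORC1 that is also a HIF target, was 6.99-fold higher (6.63 to 7.37) and KLHL24 3.01-fold (2.84 to 3.20), whereas EIF4EBP1, a translation repressor gene, was 2.29-fold lower (2.15 to 2.44). With oxamate over hypoxia the list had 1 higher (CEBPB), 0 lower and a median of 0.48. The oxidase gene ERO1A stood at 1.99-fold and the lipoprotein receptor gene VLDLR at 1.98-fold, while DDIT4 was 1.38-fold lower. Among the death genes, BBC3 had 12.95, 8.17 and 9.59 CPM, BCL2L11 39.7, 51.8 and 32.7 CPM and the death receptor gene TNFRSF10B 152, 130 and 76.7 CPM with oxamate, in hypoxia and in normoxia. FGF21 was near or at 0, at 0.320, 0 and 0.271 CPM.

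The other arms of the unfolded protein response, led by ATF6 and XBP1, had no shared direction. With oxamate over hypoxia 3 of 17 were higher and 1 lower (median -0.24). The higher genes were DNAJB9 at 2.39-fold (2.20 to 2.60), ERN1, which encodes the stress sensor IRE1, at 2.27-fold (2.12 to 2.44) and EDEM1 at 2.11-fold (2.02 to 2.20). The main chaperone gene HSPA5 (BiP) had 503, 814 and 1023 CPM with oxamate, in hypoxia and in normoxia, and SDF2L1 was 2.89-fold lower (2.51 to 3.32). In hypoxia over normoxia 0 were higher and 1 lower, XBP1, at 2.16-fold (2.10 to 2.23).

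Mitochondrial chaperones and proteases, which are described as targets of ATF5, had 0 of 10 past the rule with oxamate over hypoxia (median -0.01), where 11% of all genes were. In hypoxia over normoxia 2 were lower and 0 higher, where 8.06% of all genes were lower. The median log2 ratio there was -0.76, and over all genes tested it was -0.11. The list is small, and whether it differs from all genes was not tested. HSPD1 was 2.79-fold lower (2.73 to 2.85), with 324, 440 and 1229 CPM, and its partner HSPE1 2.70-fold lower (2.51 to 2.90).

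HIF targets were set beside STC2, which is described as one of them. With oxamate over hypoxia 7 of 20 were higher and 0 lower, against 5.92% and 5.07% of all genes. The median log2 ratio was 0.80, near the 0.81 of the 10 stress genes. PPFIA4 was 4.85-fold higher (4.29 to 5.49) and INSIG2 3.82-fold (3.66 to 3.98), which bracket the 4.49-fold of STC2. In hypoxia over normoxia the list had 17 of 20 higher and 0 lower (median 1.91), against 10.8% and 8.06% of all genes. The stress genes had a negative median there. The largest ratio of the list in hypoxia over normoxia was that of CA9, carbonic anhydrase IX, at 27.6-fold (23.7 to 32.3). With oxamate over normoxia 20 of 20 were higher (median 2.86), against 15.4% of all genes. The part of HIF in the values of STC2 and GDF15 was not tested.

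**Figure D5:**
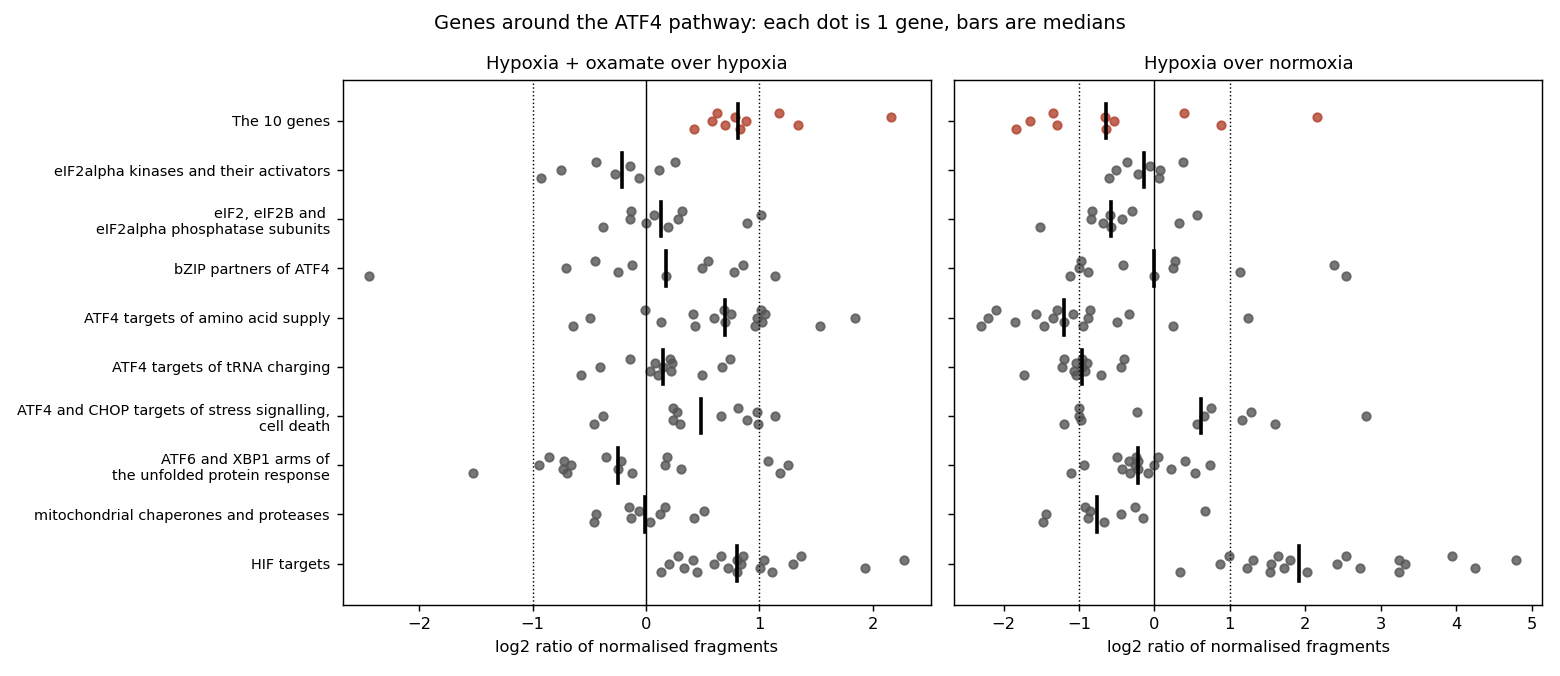
Log2 ratios of the 10 genes (red) and of the members of 9 related lists (grey, 1 dot per gene with at least 50 fragments in either library) for oxamate over hypoxia and for hypoxia over normoxia. Black bars are medians and dotted lines mark 2-fold. Amino acid supply genes have medians of 0.70 and -1.20, the 10 genes 0.81 and -0.65, and HIF targets 0.80 and 1.91.

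The genes nearest in pattern were sought as the smallest Euclidean distance in the pair of log2 ratios over the 3 libraries, among 11197 protein-coding genes with at least 100 fragments in their highest library. PTGER2 and IL17RB were nearest to ATF4, at distances of 0.0059 and 0.019, and 19 genes lay within 0.1 of it. Nearest to DDIT3 were PPT2 and SLC35B4, and 21 genes lay within 0.1. TRIB3 and CHAC1 had 2 genes each within 0.1, NRCAM and RFXAP for TRIB3 and TBX2 and GPR37 for CHAC1. GDF15 had 1, the matrix protein gene MATN3, with 104, 57.4 and 12.4 CPM with oxamate, in hypoxia and in normoxia. STC2 had 0 within 0.1, the nearest being CBLN2 at 0.109 and NPM2 at 0.129. With 3 libraries, such likeness rests on only 2 ratios.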

How the data were processed

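Gene expression was measured by sequencing poly(A) RNA (3 µg per sample, per the labels' protocols) in 3 libraries, 1 per condition. The authors deposited 1 FPKM value per gene and library, fragments scaled to summed exon length and a library factor. That factor was not the fragment total alone. For ATF4 in hypoxia over normoxia, deposited FPKM and median-of-ratios scaling both gave a log2 ratio of -0.6665, and total fragments gave -0.4949. Tools listed in the submitters' processing notes, without their roles, are edgeR 3.22.5, featureCounts 1.5.0-p3, StringTie 1.3.3b and HISAT2 2.0.5, and the listed build is hg38. How strand and overlaps were treated is not given in the sources used here.

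In each library the product of deposited FPKM and length was a whole multiple of 1 constant for 100% of values above 0 (within 0.01), and these whole numbers were used as fragment counts. Genes with at least 10 fragments in all (21987) set the scaling by the trimmed mean of M values (30% of log ratios and 5% of levels trimmed), with factors of 1.01, 1.05 and 0.944 for oxamate, hypoxia and normoxia. Ratios have 95% exact conditional binomial intervals. Intervals cover counting error only and hold no spread between cultures. Without molecular identifiers PCR copies of a molecule are counted separately, so the intervals can be too narrow even for counting error. Calculations used scipy 1.17.1, pandas 2.3.3, statsmodels 0.14.6 and numpy 2.4.6 under Python 3.11.15, and the procedure was tested on simulated data. The simulated counts held Poisson counting error alone, which the intervals assume. They thus check the calculation and tell nothing about spread between cultures or PCR copies. Gene types and exons came from GENCODE 29 and promoter sequences from RefSeq (GRCh38.p14).

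The 10 genes, the 16 lists (174 entries, all found) and the tests were chosen with earlier results of these data known, so none is independent support. All 10 genes are described. The rule for other genes took, per list and comparison, the 2 highest and 2 lowest ratios. Not all of these are printed, and which were, with others named for a known role, was chosen after values were seen. The alternatives are total-fragment and median-of-ratios scaling, FPKM ratios, no filter, other minimums and folds, whole intervals and a length trend.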

Additional observations from a re-analysis of the deposited data

How the results depend on the processing

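Under 6 alternatives in scaling, unit, filter and gene length, none of the 10 genes that passed the 2-fold rule in a comparison changed sign there. DDIT3 with oxamate over normoxia, which was not past the rule, ran from -0.02 to 0.24 on the log2 scale. Ratios of deposited FPKM equalled those of median-of-ratios scaling, so these alternatives are the same check and not separate ones. Of 30 gene ratios, 11 left their counting interval with total-fragment scaling, 5 with a pseudocount of 1 FPKM and 5 without the length trend. Total-fragment scaling moved the median log2 ratio of all genes in hypoxia over normoxia to 0.04, against -0.11, and the higher share of all called genes to 70.3%, against 57.3%. It also brought STC2 past the rule there, for 2 genes higher. At 1.5-fold, 2 of the 10 were higher in hypoxia over normoxia, 8 with oxamate over hypoxia, and 3 lower with oxamate over normoxia. Requiring the whole interval past 2-fold left 2 of the 10 higher with oxamate over hypoxia, without CHAC1, and 2 over normoxia, without ATF3. The pseudocount of 1 FPKM ended the same calls, with CHAC1 at 0.86 and ATF3 at 0.88 on the log2 scale.

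Counts over all genes moved by more than 1.5 times as follows. For hypoxia over normoxia, higher and lower counts were 559 and 581 with a pseudocount of 1, 3618 and 1772 at 10 fragments, 2530 and 2964 at 1.5-fold, and 944 and 665 with whole intervals, against 1468 and 1093. For oxamate over hypoxia they were 324 and 187, 2079 and 1866, 1880 and 1894, and 491 and 307 in the same order, against 813 and 696. For oxamate over normoxia they were 1025 and 1325 with a pseudocount of 1 and 3307 and 3903 at 1.5-fold, and 4351 were higher at 10 fragments, against 2091 and 2079. These follow from the rules themselves, since a lower fold or minimum admits more genes and a pseudocount shrinks low ones.

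No paired analysis was possible because each condition has 1 library. The spread between cultures is unknown. Counting error limits ASNS and CHAC1 most. With the overlapping gene added to ASNS, hypoxia over normoxia turned from below 1 to above it. Oxamate over hypoxia then had an interval that holds 1.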

Other observations

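Of 8 measured paralogs of the 10 genes, 0 were past the 2-fold rule with oxamate over hypoxia (median log2 ratio 0.04), where 11% of all genes were. In hypoxia over normoxia 0 were higher and 2 lower, SESN3 and CHAC2, with a median of -0.53, against -0.65 for the 10 genes. Whether the paralogs and the 10 genes differ was not tested. SESN3 had 19.4, 28.5 and 93.8 CPM with oxamate, in hypoxia and in normoxia, and was 3.29-fold lower in hypoxia than in normoxia (3.03 to 3.57). CHAC2, the constitutive counterpart of CHAC1, had 5.597, 5.46 and 15.3 CPM and stood at 1.03-fold with oxamate over hypoxia, where CHAC1 was 2.26-fold higher. TRIB1 had 81.6, 91.9 and 69.9 CPM, and TRIB2 was at 0 fragments in every library. STC1, the paralog of STC2 that is known as a HIF target in other cells, was near 0, at 0.360, 0.0361 and 0 CPM.

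GDF15 and SESN2 are also known as targets of p53, which Hep3B cells are known to lack in functional form. Of 12 genes on the p53 list, 2 were higher and 0 lower with oxamate over hypoxia (median 0.20), the stress genes PLK3 at 2.37-fold (2.04 to 2.76) and TP53INP1 at 2.08-fold (1.99 to 2.16). In hypoxia over normoxia 1 was higher, CDKN1A at 2.95-fold (2.37 to 3.68), and 1 lower, AEN at 2.24-fold (2.01 to 2.51). MDM2, a core p53 target, had 99.3, 95.5 and 109 CPM with oxamate, in hypoxia and in normoxia.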
